A study of Mus musculus with 6 samples.

Results

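The genes described here encode the initiation and elongation factors of cytoplasmic translation. They were taken by name from the gene table of a study of cultured mouse B cells: names beginning Eif1 to Eif6, Eef1, Eef2 or Pabpc, without the eIF2 kinases (Eif2ak), Eef1e1, Eif2s3y and Eif1ay. The rule took 67 of 21307 rows, and none of the 67 merges several gene names. The rule uses gene names alone, and it was written with earlier results of these data known.

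The series compared 3 libraries from 4-OHT-treated cells with 3 libraries from ethanol-treated cells. 4-OHT (4-hydroxytamoxifen) was given at 50 nM for 24 h to delete Prmt5, and the controls received ethanol for as long. Both were then washed and kept in culture for 5 days more. All cells were bone marrow B cells of pre-tumoral mice, 6 to 8 weeks old and of C57BL/6 x 129S1/SvlmJ background. In both conditions the cells carried the Eµ-myc transgene, which drives MYC from an immunoglobulin enhancer, as well as loxP-flanked Prmt5 and a tamoxifen-activated Cre (CreER), and grew with interleukin 7 at 5 ng/µl. No group without Eµ-myc and no group given 4-OHT without the loxP-flanked alleles was analysed here, so effects of 4-OHT or Cre and loss of Prmt5 cannot be told apart. The libraries given 4-OHT are titled PT and those given ethanol WT, although 1 genotype is stated for all; the treatment labels and the table's own condition names are followed here.

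The table holds 1 FPKM value (fragments per kilobase of transcript, scaled to library size) per gene and condition. Values of single libraries were not analysed here, so no difference below has a replicate error, an n or a test, and sequencing depth is unknown. Differences between conditions are given as log2 of (4-OHT FPKM + 1) over (ethanol FPKM + 1), and folds between conditions are on this scale, which understates the change of low genes. Proportions between genes within a condition are plain ratios of FPKM. Rows above 0 in both conditions with a mean of at least 1 FPKM were compared, 10856 in all, and 59 of the 67 factor genes were among them.

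Translation begins when eIF2 carries the initiator tRNA to the small ribosomal subunit, where eIF1, eIF1A, eIF3 and eIF5 gather. The eIF4 factors bind the cap of the mRNA and unwind its leader, and the poly(A)-binding proteins hold its tail. After the subunits join, eEF1A brings each aminoacyl-tRNA and eEF2 moves the ribosome along. MYC is known to raise the production of ribosomes and of several translation factors, and Eµ-myc B cells make more protein than normal B cells.

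Prmt5 (mm9 chr14:55126019-55136307), the deleted methyltransferase gene, stood at 5.71 FPKM in 4-OHT cells and 41.6 FPKM in ethanol cells, 6.35-fold lower. Myc stood at 213 FPKM in 4-OHT cells and 402 FPKM in ethanol cells. All 7 B cell marker genes used, among them Pax5 and Cd79a, had values above 0 in both conditions. Their summed level was 619 FPKM in 4-OHT cells and 1489 FPKM in ethanol cells, with 7 of 7 lower, against 55.1% of all compared genes. Markers of other bone marrow cells were also present and higher in 4-OHT cells. The 6 neutrophil markers summed to 3015 and 315 FPKM in 4-OHT and ethanol cells, the 7 macrophage markers to 5651 and 2777 FPKM, the 5 stromal markers to 510 FPKM and 30.7 FPKM, and the 4 megakaryocyte markers to 808 and 218 FPKM. Every matched marker of those other lists was higher, against 44.9% of all compared genes, and none was listed at 0. S100a8 and S100a9 were not matched, and Adgre1 is in the table as Emr1. The part of this shift in the results below was not tested. In bulk RNA, fewer cells of a type and less RNA per cell cannot be told apart.

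Most translation factor genes were a little lower in 4-OHT cells, and few were much lower. Of the 59 compared, 53 were lower, against 55.1% of all compared genes, and 6 were higher, against 44.9%. The median log2 ratio was -0.35, or 1.27-fold lower, and the interquartile range ran from -0.46 to -0.23. Over all 10856 compared genes the median was -0.07 and the interquartile range ran from -0.39 to 0.40. Only 7 factor genes were at least 1.5-fold lower, and 12.8% of all compared genes were, so at this size the factors stood near the background. A single factor gene, Eif2s2, was at least 2-fold lower, against 2.58% of all genes, and a single one, Eef1a2, was at least 2-fold higher, against 10.4%. Eef1a2 was also the only factor gene at least 1.5-fold higher, against 19.5% of all genes. The count at 1.5-fold depends on scaling: it was 11 with median-of-ratios scaling over all rows above 0, where 15.7% of all genes passed, and 4 when the scaling factor came from the compared rows alone, where 9.90% did. With that last scaling Eif2s2 was at a log2 ratio of -0.93, short of 2-fold.

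**Figure D1:**
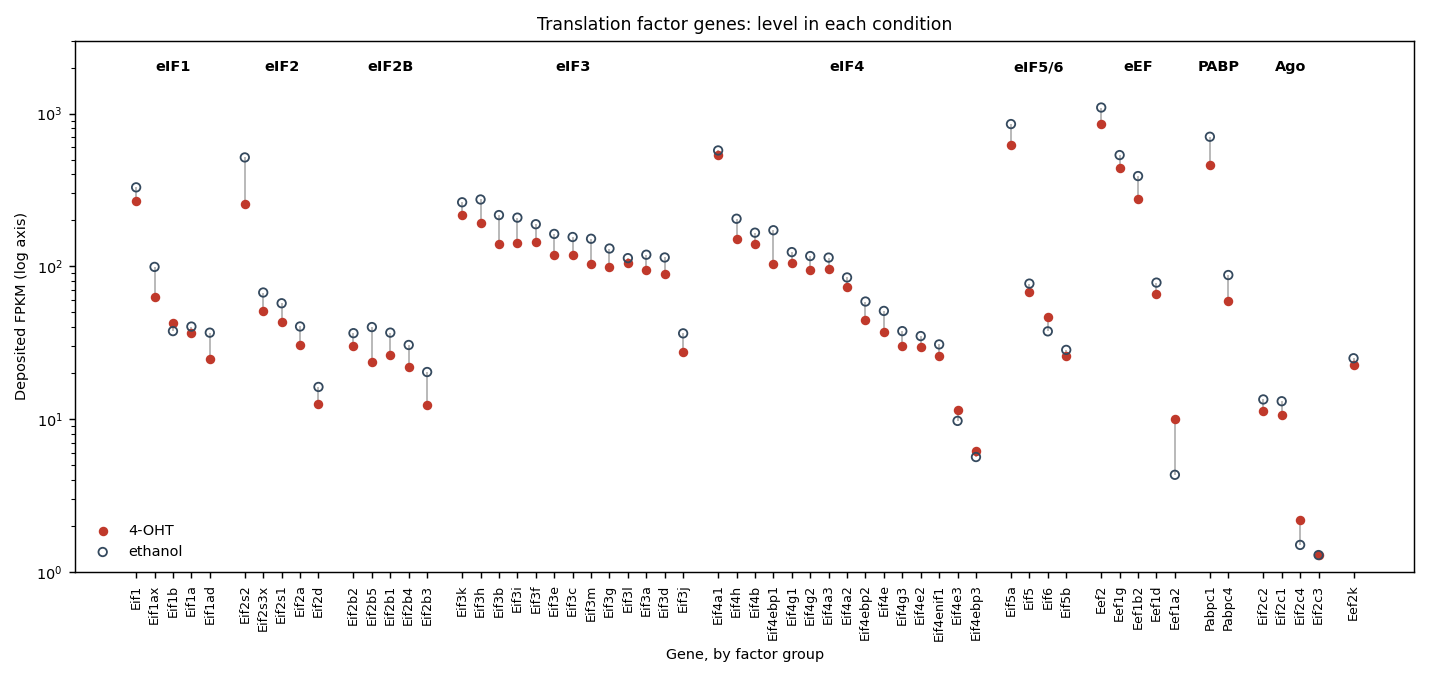
Deposited FPKM of the 59 compared translation factor genes (log axis), with filled points for 4-OHT cells and open points for ethanol cells, ordered by factor group and by mean level within it (Ago marks the Argonaute genes; Eef2k stands last). The 4-OHT point lies below the ethanol point for 53 genes, with the widest gap downward for Eif2s2 and upward for Eef1a2.

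The summed FPKM of all 67 rows was 6986 in 4-OHT cells and 9273 in ethanol cells, 1.96% and 2.67% of the summed FPKM of the table. These shares leave out Eef1a1, usually the most abundant of these genes, which is listed at 0 in both conditions. The difference was there at high and at middle levels. In the class whose mean reached 100 FPKM, all 26 factor genes were lower, against 59.9% of all its genes. The median was -0.39 for these factors and -0.17 for the 533 other genes. From 50 to 100 FPKM, 8 of 8 factor genes were lower, against 60.1% of all genes there. Their median was -0.39, against -0.15 for the other genes. From 10 to 50 FPKM, 18 of 21 were lower, against 59.6% of all genes there, with medians of -0.28 and -0.12. Only 4 compared factor genes lay under 10 FPKM, and 3 of these were higher. Of all genes in that class, 49.5% were lower.

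**Figure D2:**
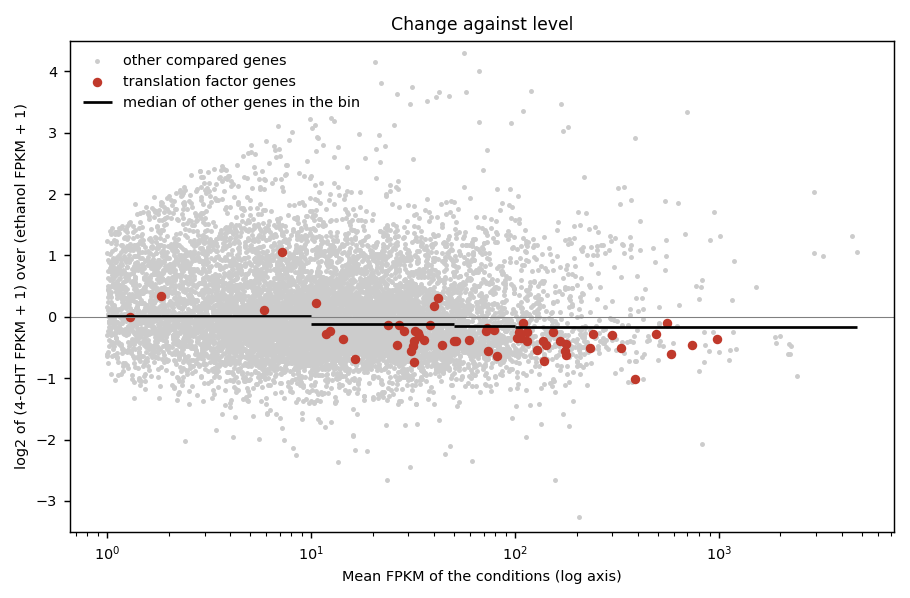
The log2 ratio of 4-OHT over ethanol (FPKM + 1) against the mean FPKM (log axis) for the 59 factor genes and all other compared genes, with black lines for the median of the other genes from 1, 10, 50 and 100 FPKM upward. The 26 factor genes of at least 100 FPKM all lie below 0, with a median of -0.39.

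The heterotrimer eIF2 binds GTP and the initiator tRNA, and its subunits differed in how far they were lower. Eif2s2 (mm9 chr2:154697146-154718642), which encodes the beta subunit, stood at 256 FPKM in 4-OHT cells and 516 FPKM in ethanol cells. It was 2.01-fold lower (log2 ratio -1.01), the lowest ratio of all the factors and rank 277 from the lowest among all compared genes. Eif2s1, the alpha subunit and the target of the stress kinases, stood at 43.4 and 57.3 FPKM in 4-OHT and ethanol cells (log2 ratio -0.39). Eif2s3x, the X-linked gene of the GTP-binding gamma subunit, stood at 51.4 and 67.4 FPKM (-0.38). Alpha and gamma thus kept nearly the same proportion, 1.18 gamma per alpha by FPKM in both conditions. The beta mRNA was in excess of alpha in both, 5.91-fold in 4-OHT cells and 9.01-fold in ethanol cells. The 2 carriers of initiator tRNA outside this trimer, Eif2a (30.7 and 40.4 FPKM) and Eif2d (12.5 and 16.2 FPKM), were at -0.38 and -0.35. With Eif2s2 set apart, the 4 other eIF2 genes lay within -0.39 to -0.35, and the eIF2 median was -0.38.

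The exchange factor eIF2B returns eIF2 to its GTP form and is the point at which the integrated stress response slows initiation. All 5 subunit genes were lower, against 55.1% of all compared genes, with a median of -0.48. This was the lowest median among eIF2, eIF2B, eIF3, eIF4 and eEF. The 2 compared poly(A)-binding protein genes had a lower one, -0.58. The catalytic pair was lowest. Eif2b5 (epsilon, which holds the exchange activity) stood at 23.5 FPKM in 4-OHT cells and 40.0 FPKM in ethanol cells, 1.67-fold lower. Eif2b3 (gamma, its partner) stood at 12.3 and 20.3 FPKM, 1.60-fold lower. The regulatory subunits that sense phosphorylated eIF2 were less changed: Eif2b1 (alpha) was at 26.1 and 36.8 FPKM (log2 ratio -0.48), Eif2b4 (delta) at 22.02 and 30.6 FPKM (-0.45), and Eif2b2 (beta) at 30.3 and 36.5 FPKM (-0.26). The order of levels changed with this. Eif2b5 was the highest of the 5 in ethanol cells and the third in 4-OHT cells, where Eif2b2 was highest, while Eif2b3 was lowest in both. In ethanol cells Eif2b5, Eif2b1 and Eif2b2 lay close together, at 40.0, 36.8 and 36.5 FPKM, so their order rests on small differences.

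Of the 6 genes for kinases and phosphatase subunits that set the phosphorylation of eIF2 alpha, 4 were higher, against 44.9% of all genes, and 2 were lower. The median was 0.15. No gene was past 1.5-fold, against 12.8% of all compared genes at least 1.5-fold lower and 19.5% at least 1.5-fold higher. Ppp1r15a, the stress-induced phosphatase subunit also called GADD34, stood at 12.4 FPKM in 4-OHT cells and 9.17 FPKM in ethanol cells (log2 ratio 0.40). Its constitutive relative Ppp1r15b stood at 36.9 and 50.2 FPKM (-0.43). The double-stranded RNA kinase gene Eif2ak2 was at 8.62 and 7.18 FPKM (0.23), and the heme-regulated kinase gene Eif2ak1 at 32.5 and 36.1 FPKM (-0.15). The neutrophil and macrophage markers were higher in the same comparison, and their part in these values was not tested.

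The largest initiation factor, eIF3, is a scaffold on the small subunit. All 13 of its genes were lower, against 55.1% of all compared genes. Their median log2 ratio was -0.40, and 11 of them lay within 0.2 of that median. The interquartile range ran from -0.51 to -0.35. Such a spread was not particular to eIF3: that of the eIF4 genes ran from -0.36 to -0.22. The median subunit stood at 118 FPKM in 4-OHT cells and 156 FPKM in ethanol cells. Levels spread from 27.6 FPKM (Eif3j) to 217 FPKM (Eif3k) in 4-OHT cells, and from 36.4 FPKM (Eif3j) to 274 FPKM (Eif3h) in ethanol cells. Eif3j, a loosely attached subunit, stood at 23.4% of the median subunit in both conditions. Its locus spans 89764 bases, and no RefSeq gene length was matched to check it against.

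The eIF3 genes furthest from the median of the complex were Eif3b and Eif3l. Eif3b encodes a scaffold subunit with an RNA recognition motif and a propeller domain. It stood at 139.7 FPKM in 4-OHT cells and 217 FPKM in ethanol cells (-0.63). It was the only eIF3 gene past 1.5-fold, against 12.8% of all compared genes at least 1.5-fold lower. Eif3i and Eif3m passed too with median-of-ratios scaling, and Eif3b itself did not with the factor from the compared rows (-0.55). Eif3i and Eif3g, which bind Eif3b in a module of their own, were at 142 and 208 FPKM (-0.55) and at 98.9 and 130.8 FPKM (-0.40). The module of b, g and i summed to 380.5 FPKM in 4-OHT cells and 556 FPKM in ethanol cells. Of the PCI and MPN domain core, Eif3m (-0.54), Eif3h (-0.51) and Eif3e (-0.45) were lowest, and Eif3c (-0.40), Eif3f (-0.39), Eif3a (-0.34) and Eif3k (-0.27) followed. Eif3l, another core subunit, was nearly level at 105.7 and 113 FPKM (-0.10), and went to eighth place of the 13 by level in 4-OHT cells, against place 12 in ethanol cells. Its neighbours in level were close, Eif3m at 104 FPKM in 4-OHT cells and Eif3d at 114 FPKM in ethanol cells. Eif3d, which can bind the cap of some mRNAs, stood at 89.5 and 114 FPKM (-0.35). The locus given for Eif3m is 7.52 times as long as its RefSeq gene and may span neighbours.

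**Figure D3:**
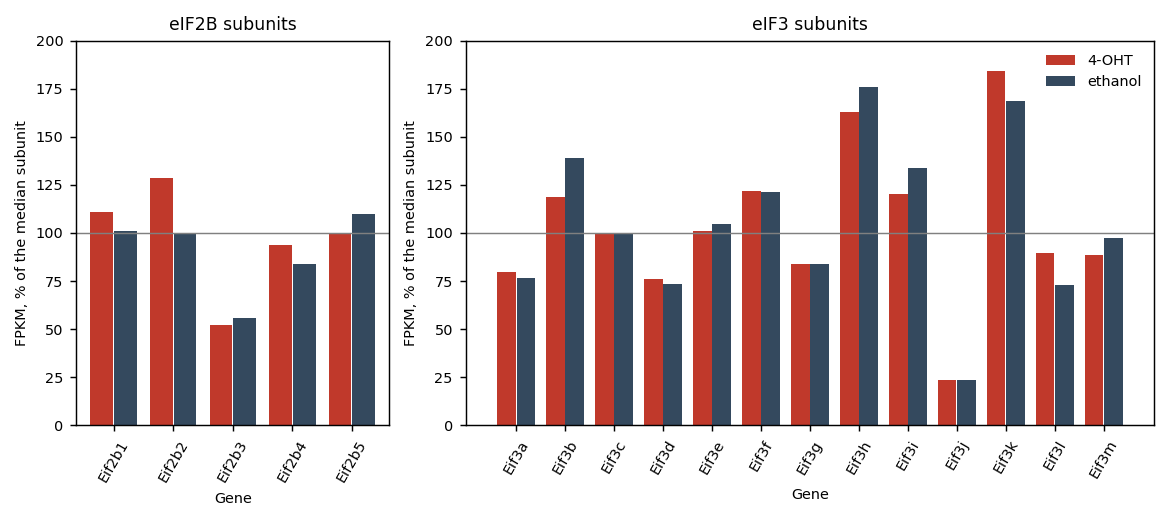
Level of each subunit gene of eIF2B (left) and eIF3 (right) as a percentage of the median subunit of that complex, with the 4-OHT bar left of the ethanol bar; bars start at 0 and each is 1 deposited value. Eif2b2 stands at 129% in 4-OHT cells and 100% in ethanol cells, whereas Eif3j stands at 23.4% in both.

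The eIF4 genes took in the factors that bind the cap and open the leader, and also inhibitors and a carrier of eIF4E. Their median change was smaller than those of eIF2B and eIF3. Of 15 compared genes, 13 were lower, against 55.1% of all compared genes, and 2 were higher, against 44.9%. The median was -0.25. Only Eif4ebp1 was past 1.5-fold, against 12.8% of all compared genes at least 1.5-fold lower. The helicase gene Eif4a1 stood at 534 FPKM in 4-OHT cells and 574 FPKM in ethanol cells (log2 ratio -0.10), among the smallest differences of the abundant factors. Its paralog Eif4a2 stood at 72.9 and 84.6 FPKM (-0.21), so Eif4a1 exceeded it 7.32-fold in 4-OHT cells and 6.78-fold in ethanol cells. The helicase cofactors Eif4b and Eif4h stood at 139.0 and 166 FPKM (-0.25) and at 151 and 205 FPKM (-0.44). Eif4a3, whose product marks exon junctions after splicing and is not part of the cap complex, was at 95.8 and 114 FPKM (-0.25). Reads that match both Eif4a1 and Eif4a2 can be split between them, and the locus given for Eif4a2 is 3.04 times as long as its gene.

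Eif4e, the cap-binding subunit and a known target of MYC, stood at 37.0 FPKM in 4-OHT cells and 51.1 FPKM in ethanol cells (log2 ratio -0.45). The scaffold genes lay together: Eif4g1 was at 104.6 and 124 FPKM (-0.24), Eif4g3 at 30.1 and 37.6 FPKM (-0.31), and Eif4g2, whose product lacks the eIF4E-binding region, at 94.3 and 117 FPKM (-0.31). By FPKM there were 14.4 Eif4a1 per Eif4e in 4-OHT cells and 11.2 in ethanol cells. The other cap-binding genes were less changed: Eif4e2, a translational repressor, stood at 29.6 and 34.9 FPKM (-0.23), and Eif4e3 at 11.5 and 9.73 FPKM (0.22). Eif4e1b, an oocyte form, is listed at 0 in both conditions.

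The inhibitors of eIF4E went apart. Eif4ebp1 (mm9 chr8:28370799-28386128), the 4E-BP that mTOR controls in many cells, stood at 103.9 FPKM in 4-OHT cells and 172 FPKM in ethanol cells, 1.65-fold lower (log2 ratio -0.72). Eif4ebp2 stood at 44.3 and 58.8 FPKM (-0.40) and Eif4ebp3 at 6.15 and 5.64 FPKM (0.11). There were 2.81 Eif4ebp1 per Eif4e by FPKM in 4-OHT cells and 3.38 in ethanol cells. Eif4enif1, which carries eIF4E into the nucleus, was at 26.0 and 30.8 FPKM (-0.24).

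Among the regulators of the cap complex, 9 of the 10 matched genes were lower, against 55.1% of all compared genes. The median was -0.40, and 2 of the 10 were past 1.5-fold, against 12.8% of all compared genes at least 1.5-fold lower. Mtor, the kinase that frees eIF4E from the 4E-BPs, stood at 24.2 FPKM in 4-OHT cells and 43.6 FPKM in ethanol cells (-0.82). Paip2b, which encodes an inhibitor of poly(A)-binding protein, stood at 7.11 and 12.4 FPKM (-0.73). Mknk1, a kinase gene of eIF4E, was the only higher member, at 31.1 and 27.5 FPKM (0.17), and Paip1 was at 10.2 and 10.3 FPKM (-0.01). The S6 kinase genes Rps6kb1 and Rps6kb2 were not matched.

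**Figure D4:**
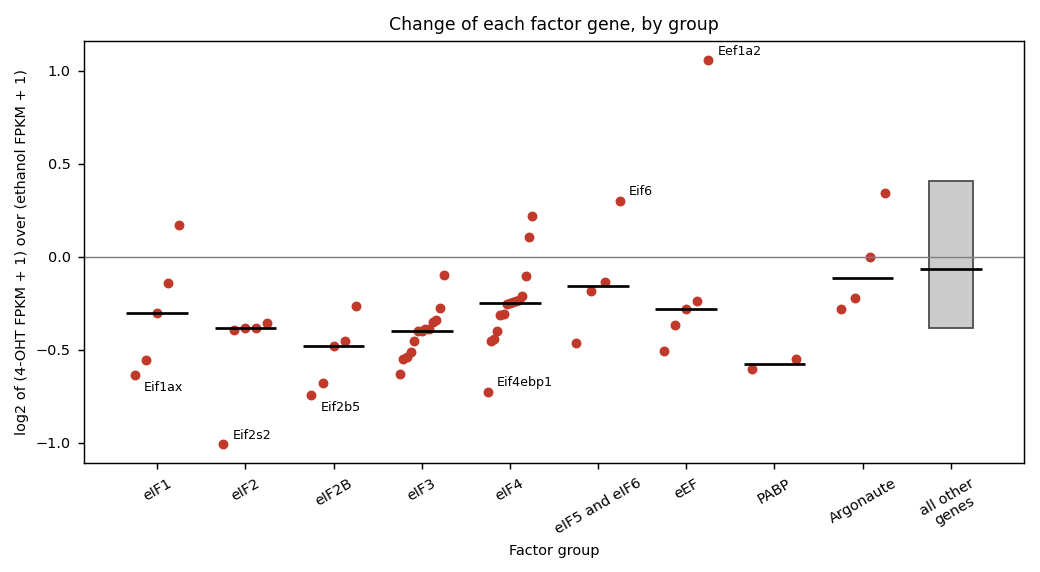
Each point is the log2 ratio of 4-OHT over ethanol (FPKM + 1) of a compared factor gene (Eef2k is not drawn), by group, with a black line at the group median; the grey box is the interquartile range of all other compared genes, with their median. The 13 eIF3 genes all lie below 0 around a median of -0.40, while Eif2s2 at -1.01 and Eef1a2 at 1.06 stand furthest out.

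The genes of start codon selection and subunit joining were uneven. Eif1ax, the X-linked gene of eIF1A, stood at 63.5 FPKM in 4-OHT cells and 99.2 FPKM in ethanol cells (log2 ratio -0.64), while its autosomal copy Eif1a was at 36.5 and 40.3 FPKM (-0.14). Eif1, which keeps the scanning complex open, was at 266 and 329 FPKM (-0.30). Its close paralog Eif1b was higher, at 42.6 and 37.7 FPKM (0.17). Eif1ad, named for a domain like that of eIF1A, was at 24.7 and 36.8 FPKM (-0.56). Eif5, which triggers GTP hydrolysis by eIF2, was at 67.9 and 77.1 FPKM (-0.18), and Eif5b, the GTPase of subunit joining, at 25.7 and 28.4 FPKM (-0.14). The locus given for Eif5b is 2.29 times as long as its gene and may span neighbours. Eif6 keeps the large subunit from joining too early. It was higher, at 46.5 FPKM in 4-OHT cells and 37.5 FPKM in ethanol cells (0.30).

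Eif5a encodes the factor that frees ribosomes stalled at proline runs and is the known carrier of the modified residue hypusine. It stood at 619 FPKM in 4-OHT cells and 854 FPKM in ethanol cells (log2 ratio -0.46). The hypusine enzyme genes were at 14.9 and 20.1 FPKM (Dhps, -0.41) and at 31.0 and 34.0 FPKM (Dohh, -0.13). Eif5a2 was not compared, at 1.03 FPKM in 4-OHT cells and 0.666 FPKM in ethanol cells. Diphthamide is a modified residue of eEF2. In the list of hypusine and diphthamide synthesis, 9 of 9 genes were lower, against 55.1% of all compared genes. Their median was -0.41. Dph5, a diphthamide methyltransferase gene, stood at 7.23 and 13.5 FPKM (-0.82). It was the only one past 1.5-fold, against 12.8% of all compared genes at least 1.5-fold lower.

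Of the 5 compared elongation factor genes, 4 were lower, against 55.1% of all compared genes, and 1 was higher, against 44.9%. Eef2, the translocase, was the highest of all the listed factors, at 849.96 FPKM in 4-OHT cells and 1096 FPKM in ethanol cells (log2 ratio -0.37). The exchange complex eEF1B reloads eEF1A with GTP. Its subunit genes were Eef1g at 441 and 535 FPKM (-0.28), Eef1b2 at 274 and 390.0 FPKM (-0.51) and Eef1d at 66.2 and 78.2 FPKM (-0.24). Eef2k, the kinase that inhibits eEF2, was at 22.8 and 25.02 FPKM (-0.13).

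Eef1a2 was the exception. It encodes the eEF1A form typical of muscle and neurons and was at 10.1 FPKM in 4-OHT cells and 4.32 FPKM in ethanol cells, 2.08-fold higher (log2 ratio 1.06; mm9 chr2:180882397-180891720). The authors' deposited table lists 1.22 for it, without a pseudocount. The form of other tissues, Eef1a1, is listed at 0, so the balance of the pair cannot be given, and reads of near-identical copies may be split. Stromal markers, summing to 510 FPKM in 4-OHT cells and 30.7 FPKM in ethanol cells, and those of other lineages named above moved the same way as Eef1a2; their part in its value was not tested.

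Of the cytoplasmic poly(A)-binding protein genes, 2 of 7 were compared and both were lower, against 55.1% of all compared genes. Pabpc1, the main form, stood at 463 FPKM in 4-OHT cells and 705 FPKM in ethanol cells, 1.52-fold lower, and Pabpc4 at 59.6 and 87.7 FPKM, 1.46-fold lower. They kept their proportion, 7.77 Pabpc1 per Pabpc4 in 4-OHT cells and 8.04 in ethanol cells. Pabpc1l and Pabpc4l lay under 0.25 FPKM in both conditions, Pabpc5 and Pabpc6 are listed at 0 in both, and Pabpc2 is listed at 0 in 4-OHT cells. The naming rule also took the 4 Argonaute genes, which act in small RNA silencing and carry Eif2c names in this table. Eif2c1 and Eif2c2 were at 10.6 and 13.1 FPKM (log2 ratio -0.28) and at 11.4 and 13.4 FPKM (-0.22). Eif2c3 was level at 1.29 FPKM in both, and Eif2c4 was at 2.18 and 1.4999 FPKM (0.35). Without these genes, Eef2k, the 4E-BPs and Eif4enif1, the median of the remaining 50 factors was -0.37. Of these 50, 46 were lower, against 55.1% of all compared genes.

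Promoters of the factor genes are shown for the sequence CACGTG, the E-box that MYC and MAX are known to bind. RefSeq promoter windows (GRCm38.p6, from 250 bases before to 50 bases after each annotated start) were matched by symbol for 45 of the 67 genes. Of the 41 that were also compared, 11 (26.8%) held the motif in a window, against 12.2% of 7740 other compared genes and 8.09% of all 27025 genes of the promoter table. Genes with several annotated starts had more windows to search, and the motif reads the same on both strands. Eif4e holds it 2 times in the bases before its downstream annotated start. These bases are chr3:138527018-138527267, plus strand, shown 5′ to 3′ with the E-boxes in capitals.
Eif4e: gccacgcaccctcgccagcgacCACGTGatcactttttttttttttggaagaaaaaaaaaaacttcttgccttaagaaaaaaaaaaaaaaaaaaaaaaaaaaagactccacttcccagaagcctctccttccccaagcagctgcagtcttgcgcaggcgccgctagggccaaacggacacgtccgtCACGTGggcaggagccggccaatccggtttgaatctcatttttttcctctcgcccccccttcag

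For comparison, 30 bases around the E-box follow for factors of elongation, eIF3, eIF4 and eIF5A and for 1 gene that was higher, Eif1b, each 5′ to 3′ on the strand of the gene. The windows are chr10:81176576-81176605 (Eef2, plus), chr7:108934335-108934364 (Eif3f, plus), chr7:28981915-28981944 (Eif3k, minus), chr11:69672595-69672624 (Eif4a1, minus), chr16:20672661-20672690 (Eif4g1, plus), chr5:134639488-134639517 (Eif4h, minus), chr11:69921443-69921472 (Eif5a, minus) and chr9:120492570-120492599 (Eif1b, plus), all on GRCm38.
Eef2: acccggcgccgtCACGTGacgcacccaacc
Eif3f: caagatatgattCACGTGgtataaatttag
Eif3k: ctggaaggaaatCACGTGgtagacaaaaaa
Eif4a1: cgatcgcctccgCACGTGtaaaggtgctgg
Eif4g1: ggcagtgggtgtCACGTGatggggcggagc
Eif4h: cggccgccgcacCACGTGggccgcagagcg
Eif5a: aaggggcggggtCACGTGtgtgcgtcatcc
Eif1b: cgtgcggacggtCACGTGgcggcggcgcgc

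The log2 ratios of factors with and without the E-box lay in overlapping ranges. The 11 with it had a median log2 ratio of -0.34, from -0.46 (Eif5a) to 0.17 (Eif1b), and the 30 without it had a median of -0.38, from -1.01 (Eif2s2) to 1.06 (Eef1a2). The remaining genes with it were Eef2k and Eif3a. A match is a description of the window and not a measured binding site. Any part of MYC in these ratios was not tested.

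Many mRNAs of translation factors are known to start with a C and a run of pyrimidines, the 5′ terminal oligopyrimidine tract through which mTOR and Larp1 control their use. A C at the annotated start followed by at least 4 further C or T bases was found for 2 of the 41 compared and matched genes (4.88%), against 2.89% of the other compared genes. They were Eif3f (chr7:108934400-108934429, plus) and Eif2s3x (chrX:94212637-94212666, minus), shown from 15 bases before the start to 15 after, with the tract in capitals.
Eif3f: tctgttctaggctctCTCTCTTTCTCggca
Eif2s3x: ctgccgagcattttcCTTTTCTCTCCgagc

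The log2 ratios of these genes were -0.39 and -0.38, near the median of the factors. Annotated starts can miss the true start by a few bases, which is enough to hide such a tract, so the other genes are not classed. Larp1 itself stood at 40.3 FPKM in 4-OHT cells and 60.5 FPKM in ethanol cells (log2 ratio -0.57).

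The genes of termination, recycling and rescue were also mostly lower, 7 of 8, against 55.1% of all compared genes. Their median was -0.27. Abce1, which splits ribosomes after termination, stood at 47.1 FPKM in 4-OHT cells and 71.4 FPKM in ethanol cells (log2 ratio -0.59), and Denr, a recycling factor gene, at 28.8 and 43.3 FPKM (-0.57). The release factor gene Gspt2 was higher at low levels, 2.18 and 1.05 FPKM (0.64), and its abundant relative Gspt1 was at 25.5 and 34.9 FPKM (-0.44). Hbs1l, a rescue factor gene, was at 29.1 and 30.9 FPKM (-0.09).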

How the data were processed

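The authors deposited 1 FPKM value per gene and condition. CASAVA, TopHat2 2.0.9, Cufflinks 2.1.1 and build mm9 are named, per the submitters' processing notes. How the authors combined the 3 libraries of a condition is not known here. The deposited log2 fold changes equal the log2 of 4-OHT over ethanol FPKM within 0.01 in all 15756 rows above 0 in both. No value column was left unmapped. Ratios used a pseudocount of 1 and a minimum mean of 1 FPKM. With 1 value per condition no test was run. Loci are those of the table, with 1 added to each start, since locus lengths then equal RefSeq gene lengths more often (6341 rows against 437). Every member row may be named; of the other lists, mostly the extremes are. The members and lists were chosen with earlier results of these data known. Subunit subsets and promoter examples were chosen after values were seen. Alternatives changed the pseudocount, filter, scaling and rows used. The ratio was tested on simulated data. Scripts ran on Python 3.11.15 with pandas 2.3.3 and numpy 2.4.6, and figures were drawn with matplotlib 3.10.9. A planned B cell marker is not reported here.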

Additional observations from a re-analysis of the deposited data

How the results depend on the processing

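With pseudocounts of 0.1 and 0.5, no minimum mean, a minimum mean of 5 FPKM, either scaling, quantile normalization, the authors' deposited fold changes or merged rows left out, 52 to 53 of 57 to 62 factor genes were lower, and their median ran from -0.41 to -0.27. Over all genes, 46.9% to 58.7% were lower, and the median ran from -0.12 to 0.01, above 0 with no minimum mean. The median was -0.35 without rows of long loci. The factor genes at least 1.5-fold lower, 7 as reported, were 11 with median-of-ratios scaling and 4 with the scaling factor from the compared rows alone, where 4 of the 7 remained and Eif2c3 was higher. The eEF median, -0.28, was -0.40 with quantile normalization; the medians of eIF2, eIF2B, eIF3 and eIF4 moved by less than 0.1. Of all genes, 1314 were at least 1.5-fold higher when the mean had to reach 5 FPKM, which leaves fewer genes, against 2121. Scaling from the compared rows and leaving out long loci were chosen after seeing the data. No paired analysis was possible because each condition has 1 value per gene, so the replicate block and leaving out replicates were not run. Without counts, depth and precision are unknown.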

Other observations

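Mitochondria translate with their own factors, encoded in the nucleus, and these were lower as well in 4-OHT cells, within a narrow range. All 9 listed genes were lower, against 55.1% of all compared genes. None reached 1.5-fold, against 12.8% of all compared genes at least 1.5-fold lower. Their log2 ratios ran from -0.32 to -0.06 around a median of -0.25. The median of the cytoplasmic factors was -0.35 and that of all compared genes -0.07. Tufm, the mitochondrial counterpart of eEF1A, stood at 48.2 FPKM in 4-OHT cells and 57.5 FPKM in ethanol cells (-0.25), and its exchange factor gene Tsfm at 19.2 and 23.9 FPKM (-0.30). The initiation factor gene Mtif3 was lowest, at 11.1 and 14.1 FPKM (-0.32), and the release factor gene Mtrf1 was nearest to level, at 2.92 and 3.08 FPKM (-0.06).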
